A study of Mus musculus with 2 samples.

Results

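The AP-1 and immediate early genes were followed here as a group of 10 genes, Jun, Junb, Jund, Fos, Fosb, Fosl1, Fosl2, Egr1, Atf2 and Zfp36, taken from a fixed list of names with no threshold on their values. All 10 were found among the 50508 genes of the deposited expression table, and 5 of them had a mean level of at least 1 FPKM (fragments scaled by gene length and library size). The cells were E14 mouse embryonic stem cells of strain 129/Ola at passages 15 to 18. They were kept on gelatin in 15% serum with 1000 U/ml of leukemia inhibitory factor, a cytokine that holds mouse stem cells undifferentiated. Cells received a scramble siRNA or an siRNA against Mettl8, by lipid transfection. Their total RNA was collected at 72 h. The study asked how Mettl8 relates to the JNK pathway, whose kinases phosphorylate several of these transcription factors.

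AP-1 is a dimer of basic leucine zipper proteins. JUN proteins pair with each other, with FOS proteins or with ATF2, whereas FOS proteins need a JUN partner to bind DNA. Immediate early genes are transcribed within minutes of a growth factor or stress signal from factors already present, and their short-lived mRNAs then decay, in part through AU-rich elements in the 3' UTR. JNK acts on JUN and ATF2 as proteins, so transcript levels hold no measure of that step.

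The table holds 1 column per group, although the series record speaks of triplicates, so no value has a replicate error and no test between the conditions was possible. Intervals are exact 95% intervals of counting error only. The genes held 22213344 and 21420340 rebuilt reads in the libraries labelled scramble siRNA and Mettl8 siRNA; pairs of values below are in this order. Mettl8 stood at 0.67 and 100.3 FPKM, which goes against the label, so each direction below compares libraries by their labels only. All 9 stem cell markers were abundant, from 17.5 to 578 FPKM. The 10 fibroblast markers reached at most 0.66 FPKM and the 5 primitive endoderm markers at most 0.55, while 2 of 5 trophectoderm markers passed 1 FPKM, led by Krt18 at 3.11 and 2.8 FPKM.

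By the deposited values, the JUN genes supplied nearly all of the summed JUN and FOS transcript, and Jund led them. The summed level of Jun, Junb and Jund reached 35.4 FPKM under the scramble label, against 32.4 under the Mettl8 label. As in any bulk sample, fewer cells that express a gene and less RNA per cell cannot be told apart. The summed level of the 4 FOS genes was 1.54 and 1.51 FPKM. The JUN sum thus exceeded the FOS sum 23.0-fold in the former library and 21.4-fold in the latter. Jund made up 71.1% and 69.95% of the JUN sum, and Jun itself, the founding member of the family, 2.57% and 3.31%. These sums and shares take all 1195 and 1050 reads of Jund at face value. The antisense gene Gm11175 lies inside Jund, and its 840 and 728 reads cannot be told apart from those of Jund. The place of Jund above Junb thus depends on how these reads were counted.

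Jund encodes the JUN protein that many cells make without stimulation. Its level was 25.2 FPKM (23.8 to 26.6, from 1195 reads) under the scramble label and 22.6 FPKM (21.3 to 24.0, from 1050 reads) under the Mettl8 label. It ranked 962 and 1133 among 21490 protein-coding genes. The ratio between the libraries was 0.899 (0.827 to 0.977), so Jund was lower in the library labelled Mettl8 siRNA by more than counting error. Of 1553 protein-coding genes with summed reads within 25% of those of Jund, 228 (14.7%) differed by at least as large a ratio in either direction. Jund is a single exon on the plus strand of chromosome 8 (GRCm38, 70698949 to 70700616, ENSMUSG00000071076.6). The antisense gene Gm11175 lies wholly inside this exon, covers 52.6% of it and had 840 and 728 reads. Without a stated strand setting, the reads of Jund and Gm11175 cannot be told apart, and their ratios were close (0.887 for Gm11175).

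Junb, a JUN gene that serum and cytokines induce in many cells, was 9.31 FPKM (8.59 to 10.1) and 8.65 FPKM (7.95 to 9.41). Its intervals overlapped between the libraries, with a ratio of 0.929 (0.827 to 1.04). Jun was 0.91 FPKM (0.728 to 1.13, from 83 reads) and 1.07 FPKM (0.866 to 1.31, from 95 reads), with overlapping intervals. It ranked 10170 and 9802 among protein-coding genes. Junb is also on chromosome 8 (84974484 to 84978718, minus strand, ENSMUSG00000052837.6). Its exons share 173 bases with Prdx2 on the other strand, a gene at 34.5 and 37.4 FPKM.

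The promoter of Jun is shown because it holds the sites through which JUN and ATF2 dimers are known to act on the gene, so that a pair of these 10 genes meets there. The 250 bases before the RefSeq start (GRCm38.p6, chr4:95052223-95052472, minus strand) are given 5' to 3', with the 2 matches to the variant AP-1 sites known as jun2 (TTACCTCA) and jun1 (TGACATCA) in capitals.
Jun promoter: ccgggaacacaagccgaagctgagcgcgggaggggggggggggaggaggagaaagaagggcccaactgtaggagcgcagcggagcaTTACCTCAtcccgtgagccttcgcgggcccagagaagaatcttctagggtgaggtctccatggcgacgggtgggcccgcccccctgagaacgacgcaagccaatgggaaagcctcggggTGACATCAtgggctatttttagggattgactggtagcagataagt
The jun2 letters began 164 bases before the start and the jun1 letters 45 bases before it. Searched on both strands in the same 250 bases of 27025 mouse genes, the jun2 letters occurred in 0.714% and the jun1 letters in 3.02%. Among the 8 members with a promoter sequence, each occurred in Jun alone. The canonical AP-1 site TGANTCA (6.87% of all promoters) and the full cyclic AMP response element TGACGTCA (1.62%) occurred in 0 of the 8. These are matches of letters, and binding was not measured.

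FOS genes were low in both libraries, and the leading one differed. Fosl1, which encodes FRA1, was 0.80 FPKM (0.571 to 1.10, from 39 reads) under the scramble label and 0.51 FPKM (0.324 to 0.752, from 24 reads) under the Mettl8 label. Fos, the classical immediate early gene, was 0.55 FPKM (0.389 to 0.762, from 37 reads) and 0.81 FPKM (0.607 to 1.06, from 53 reads). Fos spans 4 exons on chromosome 12 (GRCm38, 85473890 to 85477273, plus strand, ENSMUSG00000021250.13) and Fosl1 4 exons on chromosome 19 (5447547 to 5455946, plus strand, ENSMUSG00000024912.6). Fosl1 made up 51.9% of the FOS sum in the former library and Fos 53.6% in the latter. Within each library the intervals of Fos and Fosl1 overlapped, so their order was not resolved by counting in either. The intervals of each gene also overlapped between the libraries, with ratios of 1.47 (0.945 to 2.29) for Fos and 0.637 (0.362 to 1.07) for Fosl1. In the annotation used here the exons of Fosl1 share 1163 bases (57.2%) with Ccdc85b on the other strand, a gene at 4.04 and 4.01 FPKM. Fosl1 is the member whose deposited length, 1707 bases, differs from the exon union in that annotation, 2033 bases. The deposited length of Ccdc85b, 609 bases, is shorter than the shared stretch. The overlap as counted, and how the reads of the 2 genes were divided, are thus not known.

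Fosb and Fosl2, which encodes FRA2, were the lowest of the 10. Fosb was 0.10 FPKM (0.060 to 0.160, from 18 reads) and 0.08 FPKM (0.0441 to 0.135, from 14 reads). Fosl2 was 0.09 FPKM (0.0587 to 0.134, from 25 reads) and 0.11 FPKM (0.0752 to 0.159, from 30 reads). At this depth a difference of the size of these ratios, 0.80 and 1.22, was not detectable for either gene.

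**Figure D1:**
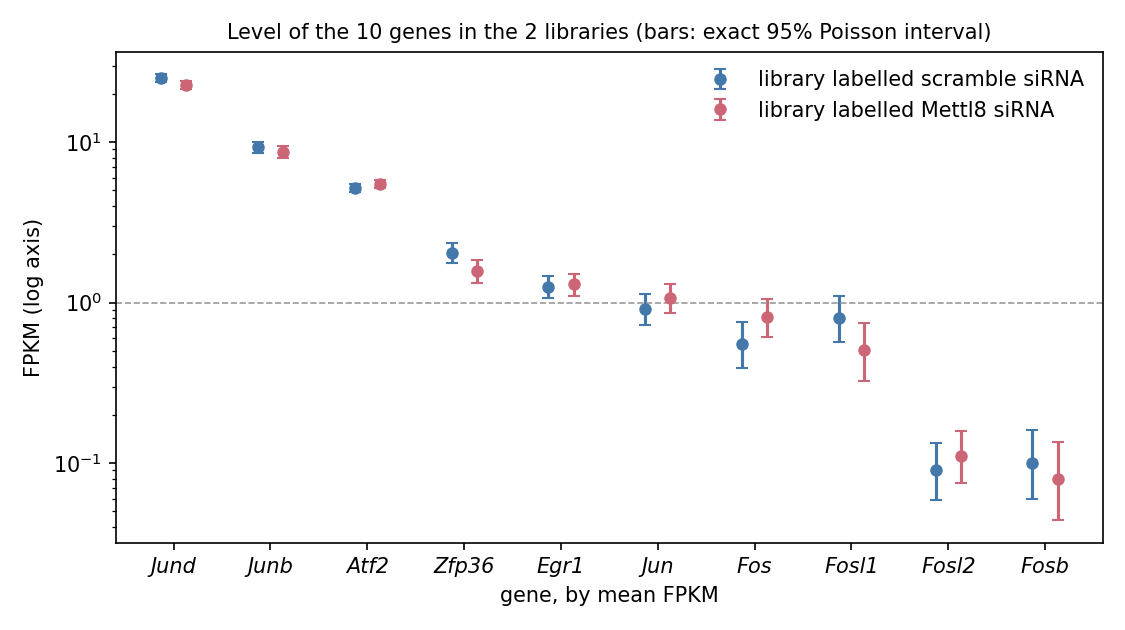
Level of each of the 10 genes in FPKM (log axis) in the library labelled scramble siRNA (blue) and the library labelled Mettl8 siRNA (red), with exact 95% Poisson intervals of counting error; the dashed line marks 1 FPKM. Jund stands at 25.2 and 22.6 FPKM, whereas Fosb and Fosl2 stay at or below 0.11 FPKM in both libraries.

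The Fos promoter is shown because it is a textbook example of a promoter held ready for a signal, here at 0.55 and 0.81 FPKM of transcript. The 250 bases before the RefSeq start (GRCm38.p6, chr12:85473640-85473889, plus strand) carry in capitals the letters TGACG, the core of the cyclic AMP response element, and the TATA box letters TATAAA.
Fos promoter: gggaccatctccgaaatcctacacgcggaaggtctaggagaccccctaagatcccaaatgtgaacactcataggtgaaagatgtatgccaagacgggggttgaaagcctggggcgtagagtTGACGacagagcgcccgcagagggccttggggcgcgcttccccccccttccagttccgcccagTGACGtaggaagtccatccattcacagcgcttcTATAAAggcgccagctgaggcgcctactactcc
The core occurred 2 times in Fos and 1 time each in Junb and Fosb, on either strand, against 17.9% of all promoters with at least 1 match. TATAAA occurred in Fos alone of the 8, against 13.0% of all promoters.

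Atf2 encodes a basic leucine zipper factor that binds DNA with JUN and is itself phosphorylated by JNK and p38. It was 5.15 FPKM (4.86 to 5.45, from 1200 reads) and 5.50 FPKM (5.20 to 5.81, from 1253 reads), above each of the FOS genes and below Jund and Junb. The intervals overlapped, and the ratio was 1.07 (0.986 to 1.16). Atf2 lies on chromosome 2 (73816509 to 73892639, minus strand). Its level depends on the length used, because the deposited length of 8187 bases joins the exons of many isoforms, against 4210 bases for the principal transcript. With all reads of the gene divided by the length of the principal transcript, Atf2 reached 10.01 and 10.7 FPKM, next to Junb at 11.8 and 11.01 FPKM on the same scale. Reads on exons outside that transcript are included, so these values can be too high.

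Egr1 encodes a zinc finger factor that growth signals induce through serum response factor. It was 1.26 FPKM (1.07 to 1.47, from 161 reads) and 1.30 FPKM (1.11 to 1.51, from 162 reads), the smallest difference among the 5 genes above a mean of 1 FPKM. The ratio was 1.03 (0.823 to 1.29). Its paralogs Egr2, Egr3 and Egr4 were at or below 0.05 FPKM in both libraries.

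Zfp36 encodes tristetraprolin (TTP), a zinc finger protein that binds AU-rich elements and recruits deadenylases to immediate early and cytokine mRNAs. It was 2.05 FPKM (1.77 to 2.35, from 202 reads) under the scramble label and 1.57 FPKM (1.33 to 1.85, from 152 reads) under the Mettl8 label. The ratio was 0.766 (0.620 to 0.955), lower under the Mettl8 label by more than counting error. Of 1232 protein-coding genes with summed reads within 25% of those of Zfp36, 79 (6.41%) differed by at least as large a ratio in either direction. Zfp36 lies on chromosome 7 (28376784 to 28380253, minus strand, ENSMUSG00000044786.6) and shares 3.60% of its exon bases with the antisense gene Gm44710, which was 7.46 and 8.55 FPKM.

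The Zfp36 promoter is shown because it carries in one stretch the letters of both upstream pathways of this group. The 250 bases before the RefSeq start (GRCm38.p6, chr7:28379229-28379478, minus strand) have in capitals an EGR site (GCGNGGGCG) and, after it, a CArG box, the element that serum response factor reads. This start lies 1025 bases downstream of the GENCODE start of the gene.
Zfp36 promoter: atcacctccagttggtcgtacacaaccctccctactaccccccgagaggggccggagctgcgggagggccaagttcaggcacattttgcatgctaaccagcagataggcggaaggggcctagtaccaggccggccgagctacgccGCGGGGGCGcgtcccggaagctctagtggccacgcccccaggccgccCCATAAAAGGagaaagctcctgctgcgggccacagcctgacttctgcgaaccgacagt
An EGR site occurred in 4 of the 8 promoters, those of Fosb, Fosl2, Atf2 and Zfp36, against 4.65% of all promoters. The CArG box occurred in Zfp36 alone of the 8, against 1.40% of all. Only these 250 bases were searched, so a box further upstream in any of the 8 would be missed. Egr1 and Fosl1 had no promoter sequence to search. All 4 with an EGR site are GC-rich, from 64.4% to 68.8%, and the site itself consists mostly of G and C. For Jund and Fosl2 the RefSeq start used here lies 1210 and 671 bases from the GENCODE start.

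The core of the TTP site, UAUUUAU, was a feature shared by most of these mRNAs. It occurred in the 3' UTR of the principal transcript in 7 of the 10 genes, against 26.1% of 20732 mouse coding genes, with Junb, Egr1 and Atf2 as the exceptions. Zfp36 and Fosl2 had 3 sites each, Fos had 2, and Jun, Jund, Fosb and Fosl1 had 1 each. A long UTR holds the letters more often by itself. Among UTRs of like length, the shorter at least 80% of the longer, 20.2% had a site for Zfp36, 20.9% for Fos, 15.0% for Jund and 17.7% for Fosl1. The share was 30.2% for Jun, 43.9% for Fosb and 65.4% for Fosl2. For the genes without a site it was 12.8% for Junb, 29.9% for Egr1 and 46.9% for Atf2. The sites of Zfp36, Fos, Jun, Jund and Fosl1 are shown because TTP, which binds such sites, is itself encoded in the group. They are written as DNA with the 7 letters in capitals, at GRCm38 positions.
Zfp36 site 1, chr7:28376968-28376992, minus strand: tgggcccttTATTTATgacgacttt
Zfp36 site 2, chr7:28376953-28376977, minus strand: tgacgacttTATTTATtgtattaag
Zfp36 site 3, chr7:28376928-28376952, minus strand: attttatagTATTTATatatattgg
Fos site 1, chr12:85477105-85477129, plus strand: ttttcaattTATTTATtaagatgga
Fos site 2, chr12:85477129-85477153, plus strand: attctcagaTATTTATatttttatt
Jun site, chr4:95049081-95049105, minus strand: gcttgtgcaTATTTATaatagcgtt
Jund site, chr8:70700361-70700385, plus strand: attccgcccTATTTATgtttctact
Fosl1 site, chr19:5455869-5455893, plus strand: ggcagctgcTATTTATtttcctaaa
Genes with and without such a site were compared over the whole table. The 2676 protein-coding genes with the site and a mean of at least 1 FPKM had a median difference of 0.017 on the log2(FPKM + 1) scale, with 57.1% of them higher in the library labelled Mettl8 siRNA. The 7052 without it had a median of 0.010, with 53.5% higher. With the GC decile taken off, the order turned, to -0.0096 with the site and 0.0031 without. The 7 genes of the group with a site lay on both sides of 0, with Fos, Jun and Fosl2 higher and Zfp36, Jund, Fosl1 and Fosb lower.

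No member differed strongly between the libraries. On the log2(FPKM + 1) scale, which understates the change of low genes, the 10 differences (Mettl8 siRNA minus scramble siRNA library) ran from -0.25 for Fosl1 and Zfp36 to 0.22 for Fos. Of the 5 members with a mean of at least 1 FPKM, 0 were 1.5-fold apart on this scale. (The plain FPKM ratio of Fosl1, from 39 and 24 reads, was 0.637.) Among all 13243 genes at that level 2.11% were, and among the 9965 protein-coding ones 0.1%. Without the filter on low values, 0 of the 10 members and 1.39% of all genes were. Of the 5, Atf2 and Egr1 were higher and Junb, Jund and Zfp36 lower, and 54.1% of all genes at that level were higher. Their median was -0.095, against 0.013 for all genes. Jun narrowly missed the filter, at a mean of 0.99 FPKM and a difference of 0.12, so these counts and this median depend on where the filter lies. Without the filter the 10 members split evenly, 5 higher and 5 lower, and their median was -0.00058.

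**Figure D2:**
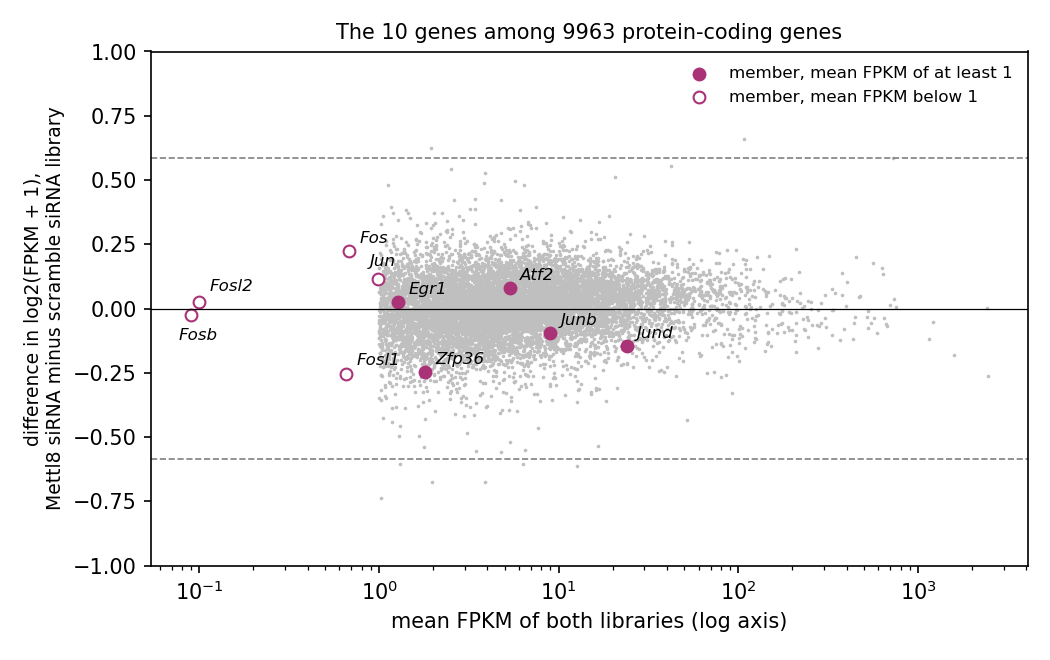
Difference in log2(FPKM + 1) between the libraries against the mean FPKM of both (log axis), for 9963 protein-coding genes (grey; Mettl8 and 1 other gene lie off the axis) and for the 10 members (filled, mean FPKM of at least 1; open, below 1); dashed lines mark 1.5-fold. The members lie between -0.25 and 0.22, inside the dashed lines.

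The counting interval of the ratio left out 1 for 2 of the 10 members, Zfp36 and Jund. Both lay below 1. An interval left out 1 for 19.4% of the genes with a mean of at least 1 FPKM (below 1 for 7.84%, and for 8.75% of protein-coding ones), for 11.4% of protein-coding genes of a read number like that of Zfp36 and for 23.5% of those like Jund. Over all 10 members, 2 is near that background, but 5 of them lie under 1 FPKM. On the same filter the count is 2 of the 5 members with a mean of at least 1 FPKM, both below 1, which is above these shares and rests on 5 genes. Jun, at a mean of 0.99 FPKM, just missed that filter, and its interval included 1. These intervals compare the 2 libraries and not the conditions. With 99% intervals, 0 of the 10 left out 1. When both libraries were rescaled to the same FPKM sum, the intervals of Zfp36 (0.817, 0.661 to 1.02) and Jund (0.959, 0.882 to 1.04) included 1. Those of Fos (1.57, 1.01 to 2.45) and Atf2 (1.14, 1.05 to 1.23) then lay above 1. This rescaling raised most genes: 7879 of 9965 protein-coding genes were then higher, against 5432 without it. The share of all genes with a rescaled interval above 1 is not given here, so these 2 have no background to be set against.

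**Figure D3:**
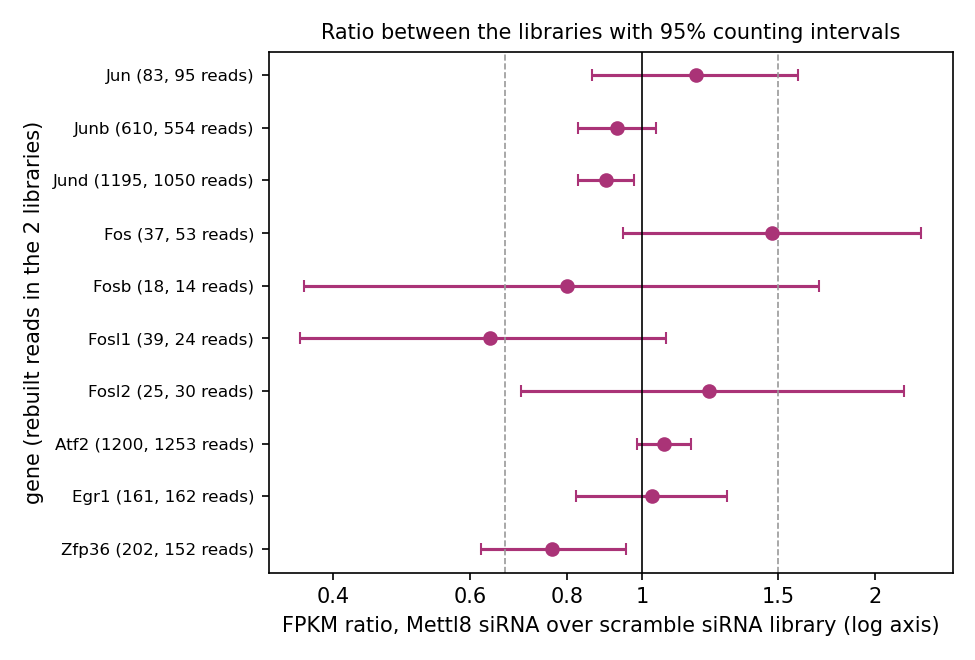
Ratio of FPKM in the library labelled Mettl8 siRNA over that in the library labelled scramble siRNA (log axis) for each member, with 95% Clopper-Pearson intervals of counting error and, beside each name, the rebuilt reads in the 2 libraries; dashed lines mark 1.5-fold in each direction. The intervals of Zfp36 (0.620 to 0.955) and Jund (0.827 to 0.977) lie below 1 and the other 8 include it.

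GC content of the transcript moved with the difference across genes. Protein-coding genes in the lowest decile of transcript GC content had a median difference of 0.062, with 74.9% higher in the library labelled Mettl8 siRNA, and those in the highest decile -0.052, with 30.6% higher. Atf2 (40.5% GC, difference 0.080) falls in the lowest decile, and Junb (62.6%, -0.095), Jund (67.1%, -0.15) and Fosl1 (58.5%, -0.25) in the highest. With the median of its decile taken off, Jund stood at -0.095, Junb at -0.043 and Atf2 at 0.018. Zfp36 (54.1% GC) lay in a decile with a median of -0.00057 and kept its difference of -0.25. The part of GC content in these differences was not tested.

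**Figure D4:**
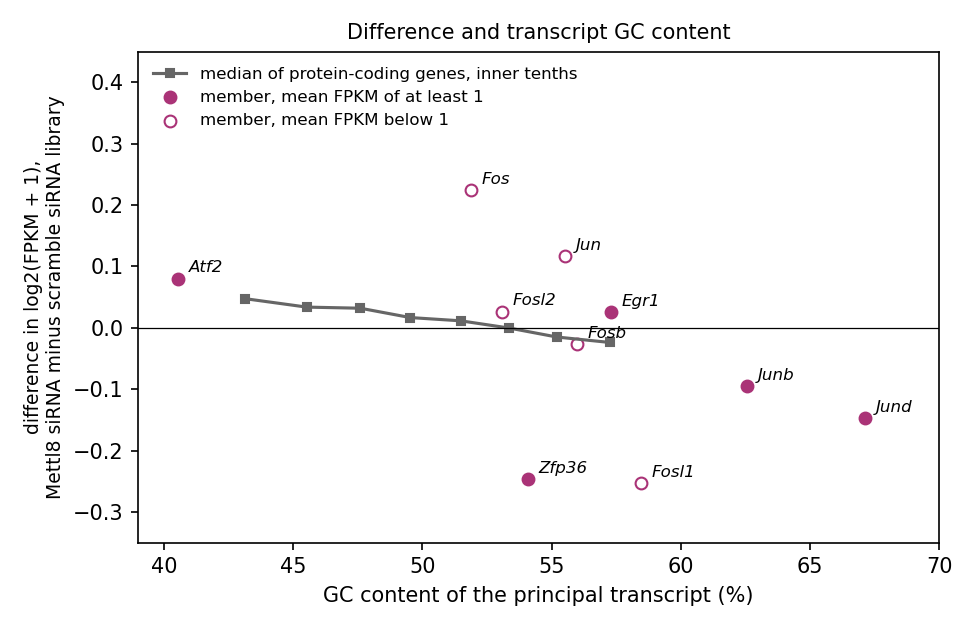
Difference in log2(FPKM + 1) between the libraries against the GC content of the principal transcript (%), for the 10 members (filled, mean FPKM of at least 1; open, below 1) and as medians of the inner deciles of protein-coding genes (grey squares, at the middle of each decile). The medians fall from 0.047 to -0.024, and Junb and Jund lie at the GC-rich end with differences of -0.095 and -0.15.

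Around these genes, other immediate early genes were expressed, and the balance of their directions depended on the setting. Of 35 listed, 24 had a mean of at least 1 FPKM, 13 higher and 11 lower under the Mettl8 label, with a median of 0.027. Among protein-coding genes at that level 54.5% were higher, the share to set beside this and each list below. With the GC decile taken off, 18 were higher and 6 lower. The interval of the ratio lay above 1 for 2 of the 24 and below 1 for 4, against 13.8% and 8.75% of protein-coding genes. Id1, an inhibitor of differentiation factors, and Sgk1, a kinase gene, were the most abundant at 25.4 and 27.5 FPKM and 24.8 and 26.0 FPKM. The largest differences were those of Ctgf, a matrix protein gene (8.67 and 10.4 FPKM, ratio 1.196, 1.08 to 1.32), the kinase gene Plk2 (22.6 and 19.6, ratio 0.866, 0.808 to 0.927) and Myc (4.91 and 5.74, ratio 1.17, 1.02 to 1.34). Ier2 and Nr4a1, induced together with Fos in many cells, were 7.5 and 7.42 FPKM and 3.28 and 3.24 FPKM; these were named after their values were seen.

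Some other basic leucine zipper genes were more abundant than the FOS family, and pairing of their proteins was not measured. Of 20 other basic leucine zipper genes, 11 were at a mean of at least 1 FPKM, 6 higher and 5 lower, with a median of 0.010. Atf4, a stress response factor, was 51.0 and 57.0 FPKM (ratio 1.12, 1.06 to 1.18), and Atf1, a CREB relative, 14.3 and 15.3. Mafa and Mafk, of the MAF family, were 1.30 and 0.87 FPKM and 1.13 and 0.92 FPKM, with intervals of the ratio that included 1.

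The upstream regulators went both ways. Of 17 listed genes of serum response factor, its cofactors and the kinases above them, 15 had a mean of at least 1 FPKM, 7 higher and 8 lower, with a median of -0.0072. The kinase gene Mapk3, which encodes ERK1, was 23.2 and 23.1 FPKM. Srf was 4.86 and 4.46 FPKM, Mapkapk2 6.54 and 6.11, and Rps6ka2 3.86 and 3.65. Of 11 JNK and p38 kinase genes, 10 did, 5 higher and 5 lower, with a median of -0.0023. Mapk13, a p38 gene, was 3.56 and 2.52 FPKM (ratio 0.708, 0.548 to 0.914), the JNK kinase gene Map2k4 9.28 and 10.4 (1.12, 1.04 to 1.21), Map2k3 5.87 and 5.34, and Mapk14 19.4 and 20.2.

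Genes that control AP-1 protein stability and cofactor binding leaned to one side. Of 13 listed, 12 had a mean of at least 1 FPKM, 11 higher and 1 lower, against 54.5% higher among protein-coding genes, with a median of 0.082. The median was 0.073 with the GC decile taken off, and these 12 genes had a median GC content of 47.1%. The interval of the ratio lay above 1 for 5 of the 12, against 13.8% of protein-coding genes. These included Taf1, a general transcription factor (4.27 and 4.78 FPKM, ratio 1.12, 1.03 to 1.22), Cops5, a JUN coactivator and signalosome subunit (14.2 and 15.6, ratio 1.10, 1.03 to 1.18) and Fbxw7, a ubiquitin ligase subunit for JUN (5.52 and 6.04, ratio 1.09, 1.01 to 1.19). The corepressors of EGR1, Nab1 (1.82 and 2.03 FPKM) and Nab2 (2.53 and 2.71), were the 2 of 6 genes of that list with a mean of at least 1 FPKM, both higher, with a median of 0.088 and intervals of the ratio that included 1.

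Genes of AU-rich mRNA turnover listed beside TTP were nearly all expressed, at widely differing levels. Of 23 listed, 22 had a mean of at least 1 FPKM, 14 higher and 8 lower, with a median of 0.037, or -0.0033 with the GC decile taken off. Pabpc1, the cytoplasmic poly(A) binding protein gene, was 102.7 and 81.5 FPKM (ratio 0.794, 0.776 to 0.812), but its value is uncertain, since it has near-identical copies and how shared reads were counted was not given; their part was not tested. The deadenylase subunit gene Cnot3 was 6.22 and 5.42 FPKM (ratio 0.871, 0.803 to 0.946), the decapping gene Dcp2 14.4 and 15.7, and Khsrp, another AU-rich element binder, 41.2 and 39.4. The TTP paralogs Zfp36l1 and Zfp36l2, named after their values were seen, were 9.31 and 9.67 FPKM and 5.06 and 5.18 FPKM, each above Zfp36 itself.

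Of 27 AP-1 targets known from other cells, 10 had a mean of at least 1 FPKM. Of these, 8 were higher and 2 lower, against 54.5% higher among protein-coding genes, with a median of 0.040. The interval of the ratio lay above 1 for 3 of the 10 and below 1 for 0, against 13.8% and 8.75% of protein-coding genes. The metalloproteinase genes Mmp3, Mmp9, Mmp10 and Mmp13 were at or below 0.21 FPKM in both libraries. The cyclin gene Ccnd1 was 10.4 and 13.0 FPKM (ratio 1.251, 1.17 to 1.34) and the secreted protein gene Spp1 91.7 and 99.5 (1.09, 1.04 to 1.13). Vim was 17.2 and 18.9 FPKM (1.10, 1.04 to 1.16). Timp1 was 10.1 and 11.2 FPKM and Hmox1 21.6 and 22.2, with intervals of the ratio that included 1. Of 24 mRNAs that TTP is known to bind, 13 had a mean of at least 1 FPKM, Zfp36 among them. Of these, 5 were higher and 8 lower, against 54.5% higher among protein-coding genes, with a median of -0.039. The interval of the ratio lay above 1 for 2 of the 13 and below 1 for 5, against 13.8% and 8.75% of protein-coding genes. The largest difference of this list was again that of Ccnd1, which was higher, as was Myc. Cdkn1a, a cell cycle inhibitor gene, was 13.2 and 11.1 FPKM (ratio 0.841, 0.760 to 0.932). Slc2a1, a glucose transporter gene, was 114.7 and 103.0 FPKM (0.898, 0.874 to 0.923), and Mcl1, a survival gene, 94.3 and 91.8 (0.973, 0.945 to 1.002). The cytokine mRNAs of that list, Tnf, Il6, Il1b, Il2, Il10 and Csf2, were at or below 0.05 FPKM in both libraries.

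Rescaling both libraries to the same FPKM sum turned several of these counts. It gave 13 of 15 higher for the serum response factor list, 7 of 10 for the kinases and 7 of 13 for the TTP targets, while 7879 of 9965 protein-coding genes were then higher, against 5432 without the rescaling. With the median ratio set to 1, 5 of the 11 other basic leucine zipper genes were higher, and their median was -0.0070. The AP-1 turnover list had 11 or 12 of 12 higher under each scaling and pseudocount tried.

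**Figure D5:**
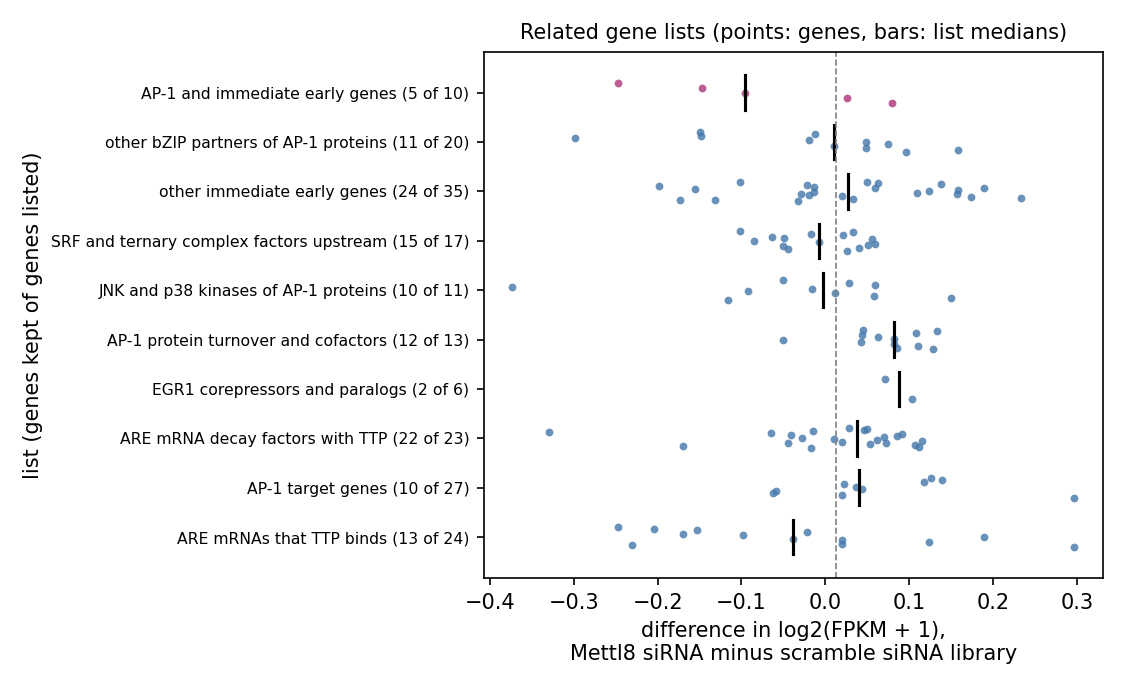
Difference in log2(FPKM + 1) between the libraries for each gene with a mean FPKM of at least 1 (points) in the group and in 9 related lists, with list medians (black bars) and the median of protein-coding genes (dashed line). All points lie between -0.37 and 0.30, and the AP-1 turnover list has 11 of 12 points above 0.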

How the data were processed

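RNA was sequenced from 2 libraries, 1 per siRNA. The authors deposited FPKM values, rounded to 2 decimals, with a gene length per symbol as another column. Per the submitters' processing notes, STAR 2.4.0i, featureCounts 1.5.0-p1 and the mm10 build were used; the annotation, the strand setting and how reads with several matches were counted were not given in the sources used here. Of the 10 deposited member lengths, 9 equal the exon union in GENCODE M21 (GRCm38, the same assembly).

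Reads were rebuilt from FPKM and length: among genes under 400 bases with fewer than 30 reads, 100% of 3120 and 3560 low values came out whole (tolerance 0.005 reads beyond rounding), at denominators of 28462000 and 27820000 reads. Rounding leaves an uncertainty of up to 1.38 reads for the longest member, Fosl2. Levels have exact Poisson and ratios Clopper-Pearson intervals; they cover counting error only, since without molecular identifiers reads may repeat a molecule. Differences are log2(FPKM + 1). A mean of 1 FPKM was the filter and 1.5-fold the fixed size. Steps were tested on simulated data (Python 3.11.15, scipy 1.17.1). Principal transcripts and their GC content come from GENCODE M21, and promoters, present for 8 of 10 members (not Fosl1 and Egr1), from RefSeq.

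The members and lists were chosen with earlier results of these data known. All members are named; from each list, the 3 largest differences and the 2 most abundant genes are, and others where stated; some that this rule selects are not reported here. With 2 libraries no gene can be named for a like pattern. The GC and transcript-length settings, and the sum rescaling of the intervals, were chosen after seeing the data.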

Additional observations from a re-analysis of the deposited data

How the results depend on the processing

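No paired analysis was possible because each group has 1 library, and no library could be left out. The count of members higher and lower, 2 and 3, and 0 members past 1.5-fold were the same with a pseudocount of 0.1 and under 2 other scalings, and the former also per protein-coding read and with the GC decile taken off. Without the filter on low values, 5 members were higher and 5 lower, because members are added. The median of the members, -0.095, ran from -0.12 with the median ratio set to 1 to -0.00058 without the filter. The 2 intervals that left out 1 became 0 at 99%, by the wider interval, and stayed 2 in number, but for other genes, with both libraries rescaled to the same FPKM sum. That sum depends on the 57-base gene Gm23935, which held 33.3% and 32.1% of it. With a pseudocount of 0.1, the log2 differences of Fosl1, Fosb and Fosl2 were -0.56, -0.15 and 0.14, against -0.25, -0.026 and 0.026 with 1, which shrinks low genes more; 0 of 10 members changed sign under any of these settings. Depth limits the 4 FOS genes most, at 14 to 53 reads.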
